A study of Mus musculus with 2 samples.

Results

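The Reelin pathway and the genes that mark Cajal-Retzius cells were followed here as 9 genes, Reln, Dab1, Vldlr, Lrp8, Trp73, Lhx1, Lhx5, Ndnf and Calb2, of the 21938 protein-coding genes annotated in GENCODE M21 on mm10 (GRCm38). They were chosen by name, and for each of them the open sites from 10 kb before the gene to 10 kb after it were taken. The assay was DNase-seq, in which the enzyme DNase I cuts accessible DNA and the cut ends are sequenced, so that a peak marks open chromatin and a footprint marks a short stretch inside it that was cut less than its surroundings. The samples were hippocampal tissue of male B6CASTF1/J mice, the F1 hybrid of C57BL/6 and CAST/EiJ, at 14 days of age, with no treatment named. The label speaks of a layer of the hippocampus and leaves the layer unnamed. There was 1 group of 2 biological replicates. The labels name 3 males and give both replicates the same donor identifier, so the spread between the replicates may be partly technical. With no second group, the values below are descriptions and carry no test.

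Reelin is a large secreted glycoprotein. It binds the lipoprotein receptors VLDLR and ApoER2, the latter encoded by Lrp8, and the bound receptors lead to phosphorylation of the adaptor DAB1 by Src family kinases, which guides the layering of neurons in cortex and hippocampus. In the developing hippocampus Reelin comes from Cajal-Retzius cells of the marginal zone, many of which carry p73, LHX1, LHX5 and calretinin, the product of Calb2. These cells decline in number after birth, and Reelin is increasingly made by GABAergic interneurons, among them the neurogliaform cells marked by Ndnf. How many Cajal-Retzius cells the samples held at 14 days was not measured.

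The authors' peak lists held 115072 peaks in replicate 1 and 95711 in replicate 2, and their footprint lists 285181 and 244137. Each peak carries a value deposited by the authors with no stated unit, called the peak value below, whose median over all peaks was 0.594 in replicate 1 and 0.734 in replicate 2. Read depth is not given, so no counting interval can be attached to a value. Over all genes whose promoter had a peak in each replicate, the replicate 2 value was 1.25 times the replicate 1 value at the median, with quartiles of 1.14 and 1.37. At promoters, a replicate 2 value above its replicate 1 value by about this much is therefore the common case. Over all protein-coding genes, 64.3% had a peak at the promoter in both replicates. So did all 6 dentate granule cell genes listed, led by Neurod1 at a mean of 2.02 and Prox1 at 1.82, the lowest being 0.612. Of 6 CA pyramidal cell genes 5 had one in both, led by Pcp4 at 3.69 and Nectin3 at 3.59, the lowest being 0.735, with none at Mpped1. Of 6 liver genes only Alb had one in both, at 0.156 and 0.22. Ttr, also a choroid plexus gene, had one in replicate 2 only (0.783), and Apoa1 and Fgb had none. These lists are short and were chosen with earlier results of these data known.

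A promoter was taken as the 1 kb on each side of every annotated start site, and its value as that of its highest peak. Of the 9 genes, 6 had a peak at the promoter in both replicates (Reln, Dab1, Vldlr, Lrp8, Ndnf and Calb2), against 64.3% of all protein-coding genes. A peak in 1 replicate only was found at 2 of 9 (Trp73 and Lhx1), against 3.56% of all genes, and at neither replicate for 1 of 9 (Lhx5), against 32.1%. Promoter footprints in both replicates were found at 6 of 9, against 62.7%. The 6 of 9 is near the share of all genes. The genes without a shared promoter peak were Trp73, Lhx1 and Lhx5, the transcription factors among the 9. Other transcription factor genes listed below went both ways, with one at Nr2f2 and Tbr1 and none at Nhlh2 and Dbx1. A split by gene class was not tested. In bulk tissue, a low value from few open cells and one from weak opening in many cells cannot be told apart.

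**Figure D1:**
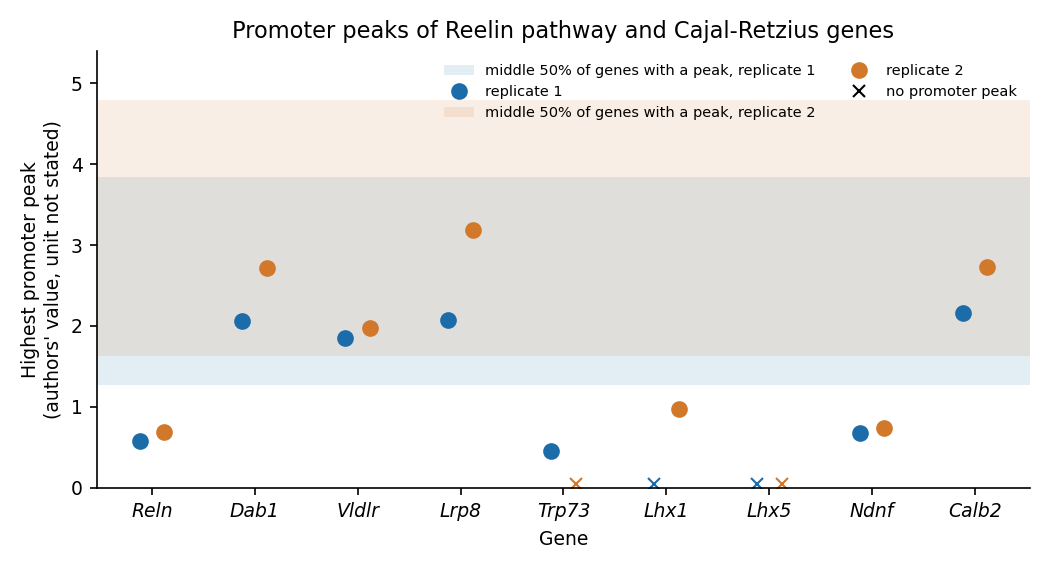
Highest promoter peak value (authors' value, unit not stated) of each gene in replicate 1 (blue) and replicate 2 (orange), with shaded bands for the middle 50% of all genes with a promoter peak in that replicate and crosses where no promoter peak was listed. Lrp8, Calb2, Dab1 and Vldlr lie within the bands, Reln and Ndnf lie under them between 0.573 and 0.742, and Lhx5 has a cross in both replicates.

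Among the 6 genes with a shared promoter peak, the mean values ran from Lrp8 (2.63 ± 0.789, SD, n = 2) through Calb2 (2.44 ± 0.406), Dab1 (2.39 ± 0.46) and Vldlr (1.92 ± 0.0908) to Ndnf (0.71 ± 0.0446) and Reln (0.629 ± 0.0792). The ranges of Lrp8, Calb2 and Dab1 overlapped, and so did those of Ndnf and Reln. Vldlr lay just under Dab1, whose lower value was 2.06 against 1.98 for the higher value of Vldlr, and the upper 4 were separated from the lower 2 by a gap from 0.742 to 1.85. The median over all genes with a shared promoter peak was 2.87, with quartiles of 1.57 and 4.35, so all 6 lay under the median and Ndnf and Reln under the lower quartile. The order of the upper genes depends on the start sites used: at the gene's 5′ end alone, the mean was 1.39 for Dab1, 1.78 for Vldlr and 1.94 for Lrp8, while the other 3 kept their values.

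The sequences that carry these sites are shown from the mm10 reference, plus strand, with shared footprints in capitals. The reference is the C57BL/6 genome, so the CAST/EiJ allele of these hybrids may differ from it. A footprint counted as shared if at least 50% of its length lay under a footprint of the other replicate. At Reln, the short shared footprint of the weak promoter peak and the intron 8 site that was the strongest of the whole gene were:
Reln promoter, chr5:22344422-22344451: gtgccgccgcGCGCCCCGCGcgctctctca
Reln intron 8, chr5:22107051-22107350: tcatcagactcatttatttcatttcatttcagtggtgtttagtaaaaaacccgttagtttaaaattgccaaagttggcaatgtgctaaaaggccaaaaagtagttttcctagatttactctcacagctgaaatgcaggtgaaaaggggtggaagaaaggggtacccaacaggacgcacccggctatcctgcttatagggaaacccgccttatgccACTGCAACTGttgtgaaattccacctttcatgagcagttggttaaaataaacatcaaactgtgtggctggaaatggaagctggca

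Reln, the ligand, spans 460 kb of chromosome 5 (chr5:21884454-22344702, minus strand, ENSMUSG00000042453) and has 65 exons. Its promoter peak had a value of 0.573 in replicate 1 and 0.685 in replicate 2. Both are low in their libraries, at percentiles 8.17 and 7.22 of all genes with a promoter peak. The start region is rich in CpG, with a CpG observed-to-expected ratio of 1.01 within 500 bp of the start, the highest of the 9 genes, and 95.1% of the 10083 genes with a ratio of at least 0.6 had a peak at the promoter in both. The printed promoter footprint is 10 bp of uninterrupted G and C, and 83.3% of the 30 bases around it are G or C. Flanking peaks in the promoter window were each seen in 1 replicate only, at 0.318 in replicate 1 and 0.432 in replicate 2, apart from a shared one 0.831 kb downstream with 0.424 and 0.293. Another annotated start inside the gene had a peak in replicate 1 only, at 0.226.

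Inside Reln, 9 shared peaks lay outside promoters, all in introns, or 1.87 per 100 kb, and genes of like length (within 1.25 times) had a median of 8. The strongest was the intron 8 site shown above, 238 kb into the gene, with 0.792 in replicate 1 and 0.766 in replicate 2. It exceeded the promoter in both replicates. Intron 10 followed with 0.594 and 0.66 (chr5:22093181-22093460), and intron 31 with 0.481 and 0.579 (chr5:21982941-21983253). The printed intron 8 sequence holds a CAGCTG E-box, a word bound by basic helix-loop-helix factors, and 2 TTGGCA words, a half-site of nuclear factor I, and none of these lies in a footprint of either replicate. Other spellings of the E-box, such as the CAACTG within the printed footprint, were not among the words searched. Across the whole window, 11 of 20 Reln sites were seen in both replicates, 8 in replicate 1 only and 1 in replicate 2 only.

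**Figure D2:**
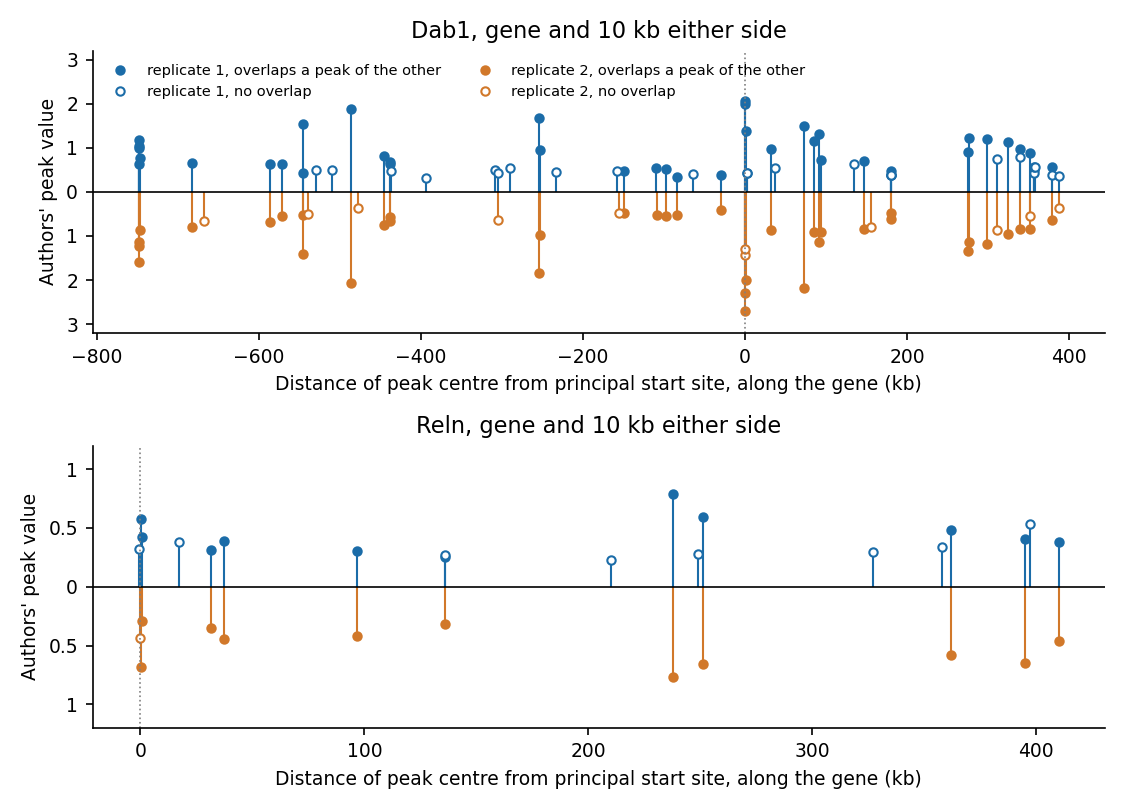
Value of every peak (authors' value, unit not stated) in and 10 kb around Dab1 (top) and Reln (bottom) by distance in kb along the gene from the principal start site (dotted line), with replicate 1 upwards and replicate 2 downwards; filled points overlap a peak of the other replicate. Dab1 has tall shared sites upstream and downstream of its principal start, whereas the tallest Reln site, 0.792 and 0.766, stands 238 kb inside the gene.

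The receptors had moderate promoter peaks. At Vldlr the promoter peak covers the end of exon 1 and the start of intron 1, and at Lrp8 the highest peak in any promoter window is not at the gene's own 5′ end but in intron 4, near an internal start, with a long shared footprint of 52 bp:
Vldlr promoter, chr19:27217628-27217927: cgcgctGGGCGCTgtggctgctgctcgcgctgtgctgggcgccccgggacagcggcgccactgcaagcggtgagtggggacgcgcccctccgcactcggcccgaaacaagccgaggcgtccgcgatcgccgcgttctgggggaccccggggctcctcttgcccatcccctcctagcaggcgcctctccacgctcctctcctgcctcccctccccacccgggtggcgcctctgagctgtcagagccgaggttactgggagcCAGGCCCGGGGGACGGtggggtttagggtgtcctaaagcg
Lrp8 intron 4, chr4:107845061-107845220: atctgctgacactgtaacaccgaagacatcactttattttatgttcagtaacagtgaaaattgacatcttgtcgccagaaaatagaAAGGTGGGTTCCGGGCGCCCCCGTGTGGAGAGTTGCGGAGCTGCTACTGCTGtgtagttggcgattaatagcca

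Vldlr (chr19:27216484-27254231, plus strand, ENSMUSG00000024924) encodes the very low density lipoprotein receptor. Its promoter value was 1.85 in replicate 1 and 1.98 in replicate 2, at percentiles 37.4 and 31.1. The replicates were close, and a second promoter peak just upstream had 1.7 and 1.86. Outside promoters Vldlr had 4 shared peaks, 6.93 per 100 kb, and genes of like length had a median of 1, with 90.8% of them having fewer. They were led by intron 1 with 0.856 and 1.12 (chr19:27218721-27219240). A site 43 kb downstream of the start, beyond the gene's end, had 0.573 and 0.685 (chr19:27259941-27260560), and one upstream, at -6.18 kb, had 0.587 and 0.652 (chr19:27210997-27211340). The upstream site has a CAGCTG word inside footprints of both replicates.

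Lrp8 (chr4:107802261-107876840, plus strand, ENSMUSG00000028613) encodes the receptor ApoER2. Its highest promoter value was 2.07 in replicate 1 and 3.19 in replicate 2. This peak lies in intron 4, 42.8 kb from the principal start, and counts as a promoter only because its edge comes within 1 kb of the start of a transcript annotated as a retained intron. That edge is 981 bp from the start in replicate 1 and 941 bp in replicate 2, and the 52 bp footprint lies outside the window. Taken at the gene's 5′ end, the values were 1.59 and 2.29, with a mean of 1.94, which is within 1 SD of the value above but places Lrp8 beside Vldlr rather than first. Of its 4 shared peaks outside promoters (4.23 per 100 kb, like-length median 2), intron 2 had 1.36 and 1.74 at chr4:107828681-107829180. A site in an exon of some transcripts had 1.42 and 1.5 at chr4:107836904-107837120, and a further intron 2 site had 1.34 and 1.48 at chr4:107817501-107817867. All 9 Lrp8 sites found in both replicates were higher in replicate 2, the common direction at shared promoter peaks over all genes. The highest value in the Lrp8 window belonged to the promoter of the neighbouring gene Magoh, at 4.31 and 5.76.

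Dab1 carried the most open sites of the 9 genes, and its promoter and its site of highest mean outside promoters, far upstream of the principal start, are shown:
Dab1 promoter, chr4:104366961-104367112: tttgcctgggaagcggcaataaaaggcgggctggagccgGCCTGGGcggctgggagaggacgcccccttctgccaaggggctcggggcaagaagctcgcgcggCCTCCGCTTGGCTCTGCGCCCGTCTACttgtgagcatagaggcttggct
Dab1 intronic site, chr4:103881621-103881920: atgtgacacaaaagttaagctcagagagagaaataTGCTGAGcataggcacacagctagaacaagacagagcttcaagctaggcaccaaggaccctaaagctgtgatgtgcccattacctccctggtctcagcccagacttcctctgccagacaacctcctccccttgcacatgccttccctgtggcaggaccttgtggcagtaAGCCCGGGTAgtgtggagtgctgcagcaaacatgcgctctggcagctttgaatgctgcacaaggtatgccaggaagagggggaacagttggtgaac

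Dab1, the intracellular adaptor, is the longest of the 9 genes at 1125 kb (chr4:103619359-104744844, plus strand, ENSMUSG00000028519). Seen from its principal start, the gene's 5′ end lies at about -748 kb, so long upstream transcripts and short ones have separate promoters. The principal promoter had 2.06 in replicate 1 and 2.71 in replicate 2, at percentiles 41.8 and 43.4. The far 5′ promoter had 1.18 and 1.59. Both starts were therefore open in both replicates, the principal one more so, while the 3 annotated starts further downstream had no peak in either. The printed promoter stretch holds a shared footprint of 27 bp with none of the 16 words searched.

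Outside promoters Dab1 had 34 shared peaks, of 64 for all 9 genes together, or 2.97 per 100 kb. The 60 genes of like length had a median of 15.5 (quartiles 7.75 and 24.5), and 88.3% of them had fewer. The highest mean was at the intronic site shown above, at -486 kb from the principal start, with 1.88 and 2.06 and 7 footprints in each replicate. Its range overlapped that of the next site, which was the higher in replicate 2. That site lay in intron 1, 72.3 kb downstream, with 1.49 and 2.18 (chr4:104439721-104440040), in which a shared footprint of 28 bp covers a CAGATG E-box. The third, upstream at -254 kb, had 1.67 and 1.85 (chr4:104113301-104113480) and a GGGCGG box in footprints of both replicates. Of 68 Dab1 sites in all, 36 were in both replicates, 23 in replicate 1 only and 9 in replicate 2 only.

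**Figure D3:**
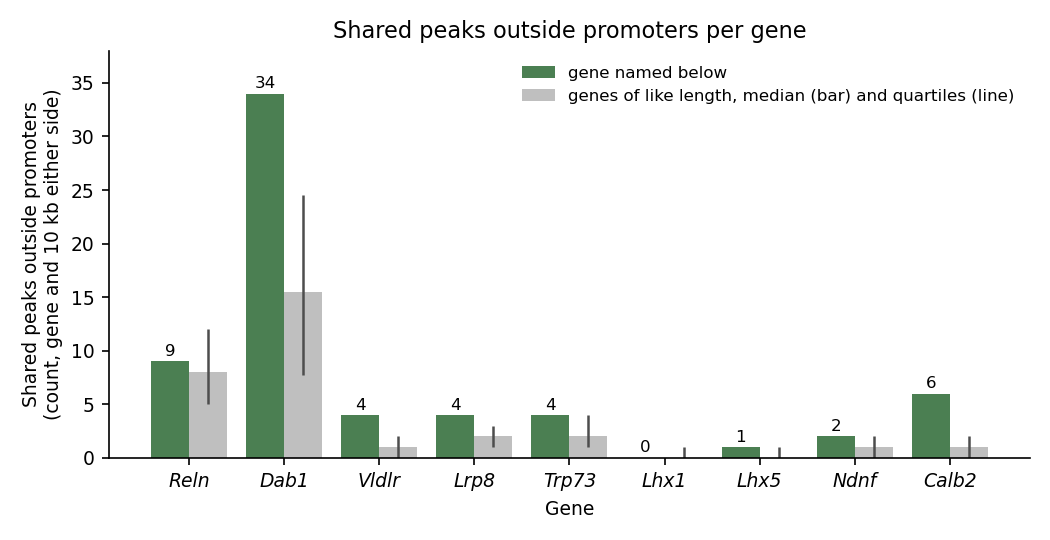
Number of replicate 1 peaks that overlap a replicate 2 peak outside every promoter, in each gene and 10 kb either side (green, number above the bar), beside the median (grey bar) and quartiles (line) over protein-coding genes within 1.25 times the same window length. Dab1 with 34, Vldlr and Lrp8 with 4 each and Calb2 with 6 stand above their upper quartiles, Reln with 9 lies inside its quartiles, and Lhx1 has 0.

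Trp73, Lhx1 and Lhx5 had no promoter peak shared by both replicates. At Trp73 and Lhx5 the strongest shared site outside promoters is on a wide shared footprint with the letters AGGGGGCGC, the core of the site of the insulator protein CTCF, on the minus strand of the stretch shown:
Trp73 intron 1, chr4:154105361-154105520: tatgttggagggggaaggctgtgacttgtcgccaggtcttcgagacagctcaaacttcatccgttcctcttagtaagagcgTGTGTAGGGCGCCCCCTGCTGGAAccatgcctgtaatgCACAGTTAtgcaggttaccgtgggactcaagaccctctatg
Lhx5 exon 5, chr5:120440898-120440927: ACCTGCGAGTTGGCGCCCCCTGGTGGCTCA

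Trp73 (chr4:154056253-154140208, minus strand, ENSMUSG00000029026) encodes p73, a p53 family factor needed for Cajal-Retzius cells. Its principal start had no peak in either replicate, and no stretch listed by the authors at a false discovery rate under 0.05 fell within 1 kb of it. The only promoter peak, at an internal start in replicate 1, had a value of 0.46. The CpG ratio at the principal start was 0.769. Of its 4 shared peaks outside promoters (3.85 per 100 kb, like-length median 2), the intron 1 site above had 1.08 in replicate 1 and 1.56 in replicate 2. Another intron 1 site had 0.707 and 0.75 (chr4:154109341-154109900), and an intron 6 site 0.665 and 0.677 (chr4:154064977-154065340). A promoter window of 2500 bp would give Trp73 a shared peak of 2.33 and 2.74, but that peak lies at the promoter of the neighbouring gene Wrap73.

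Lhx1 (chr11:84518284-84525535, minus strand, ENSMUSG00000018698) encodes a LIM homeodomain factor and had promoter peaks in replicate 2 only. Replicate 1 listed no peak at any of its 4 start sites, and replicate 2 listed 6, with values from 0.44 to 0.97. Within 1 kb of these starts the replicate 1 stretches under a false discovery rate of 0.05 covered 13 bp, with a lowest rate of 0.0429, and they were absent at the principal start. In replicate 2 the lowest rate was 2.96e-08. The 3 replicate 2 peaks nearest the principal start also lie in the promoter of the antisense gene Lhx1os, and DNase-seq does not tell the strands apart. Lhx1 had 0 shared peaks outside promoters, as did 64.7% of genes of like length. The neighbouring promoter of Aatf, 11.9 kb away, was open in both at 4.15 and 5.46, so the window was not blank in replicate 1.

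Lhx5 (chr5:120431699-120441223, plus strand, ENSMUSG00000029595), a further LIM homeodomain factor, has 1 annotated start, and neither replicate listed a peak or a stretch under a false discovery rate of 0.05 within 1 kb of it. Its CpG ratio was 0.723, and of the genes with a ratio of at least 0.6, 3.18% had a promoter peak in neither replicate. Its only shared peak, in the untranslated part of exon 5 near the gene's end (chr5:120440821-120441020), was strong, at 1.97 in replicate 1 and 2.58 in replicate 2. The shared footprint there is 34 bp long, of which 30 are printed above. A peak upstream, at -7.48 kb from the start, was listed in replicate 2 only, at 0.905.

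**Figure D4:**
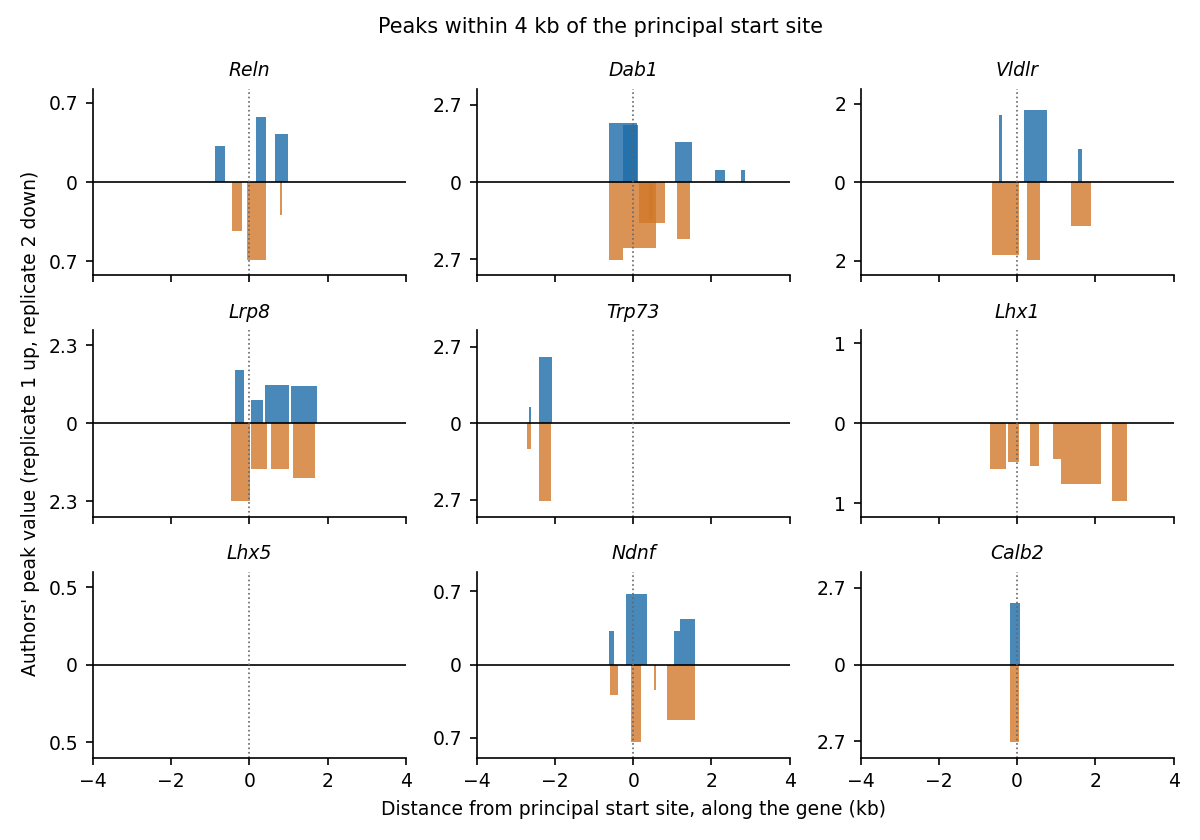
Peaks within 4 kb of the principal start site (dotted line) of each gene, drawn to scale by position in kb along the gene and by the authors' peak value (unit not stated, scale set per gene), with replicate 1 upwards in blue and replicate 2 downwards in orange. Lhx1 has peaks only on the replicate 2 side, Lhx5 has none, the peaks left of the Trp73 start belong to the Wrap73 promoter, and the other genes have peaks on both sides.

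The promoters of the markers Ndnf and Calb2 differed in the value and in the footprints. The Calb2 promoter and a site beyond the gene's end carry long shared footprints, whereas the Ndnf footprint is short:
Ndnf promoter, chr6:65671691-65671720: gctctgtctctgCAGCCCGcgccggcgttt
Calb2 promoter, chr8:110168211-110168380: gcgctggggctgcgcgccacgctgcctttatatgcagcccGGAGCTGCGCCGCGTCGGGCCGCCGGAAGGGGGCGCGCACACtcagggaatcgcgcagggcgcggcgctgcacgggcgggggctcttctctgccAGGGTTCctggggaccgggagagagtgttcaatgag
Calb2 downstream flank, chr8:110130601-110130780: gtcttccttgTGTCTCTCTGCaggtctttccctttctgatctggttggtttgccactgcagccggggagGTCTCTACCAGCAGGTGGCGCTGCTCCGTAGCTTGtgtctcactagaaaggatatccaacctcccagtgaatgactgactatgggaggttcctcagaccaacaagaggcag

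Ndnf (chr6:65671590-65712326, plus strand, ENSMUSG00000049001) encodes neuron-derived neurotrophic factor. Its promoter value was 0.679 in replicate 1 and 0.742 in replicate 2, at percentiles 10.7 and 8.47. Its range overlapped that of Reln. Its 2 shared peaks outside promoters (3.29 per 100 kb, like-length median 1) adjoin each other in intron 1 with replicate 1 values of 0.318 and 0.438. Both overlap a single replicate 2 peak of 0.53 that reaches into the promoter window, so they may be counted as an edge of the promoter.

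Calb2 (chr8:110137502-110168210, minus strand, ENSMUSG00000003657) encodes the calcium-binding protein calretinin. Its promoter value was 2.16 in replicate 1 and 2.73 in replicate 2, at percentiles 43.7 and 43.8. A single promoter peak was seen in each replicate, with a shared footprint of 42 bp that holds the AGGGGGCGC core. Outside promoters Calb2 had 6 shared peaks, 11.8 per 100 kb, the densest of the 9 genes, and 98.6% of genes of like length had fewer, their median being 1. Of the 6, 4 lay in the flanks outside the gene, 1 in an exon and 1 in an intron. The downstream site shown above had 1.99 and 2.07 and a 35 bp shared footprint, and it lies 37.5 kb from the principal start. A site upstream, at -9.31 kb from the start, had 0.94 and 0.864 (chr8:110177361-110177720), and one on coding sequence of exon 10 had 0.651 and 0.872 (chr8:110145641-110145840).

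Over all 9 genes, 8 had at least 1 shared peak outside promoters, against 53.5% of protein-coding genes, with a median of 4 peaks per gene and 3.39 per 100 kb against 1 and 1.13 over all genes. Ndnf is among the 8 only through its 2 replicate 1 peaks beside the promoter, and had 0 replicate 2 peaks outside promoters. Long genes have more room for a peak, so the like-length medians given with each gene are the closer comparison. The genes held 140 sites in all, of which 79 were in both replicates, 41 in replicate 1 only and 20 in replicate 2 only. Of their peaks, 66.9% in replicate 1 and 79.2% in replicate 2 overlapped one of the other, against 65.3% and 78.4% of all peaks. Shared peaks were taller than unshared ones, with medians of 0.728 and 0.428 in replicate 1 and of 0.848 and 0.563 in replicate 2. The same held over all peaks, with medians of 0.827 and 0.382 in replicate 1 and of 0.897 and 0.424 in replicate 2. At 61 of the 79 sites in both, replicate 2 had the higher value, with a median ratio of 1.13. Over all genes with a shared promoter peak the median ratio was 1.25. That ratio covers promoters only, whereas most of the 79 sites lay outside them, so it is not a matched background for this count. The step of which the values are multiples was also larger in replicate 2, at 0.00815 against 0.00707. The share over all shared peaks is not given here.

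**Figure D5:**
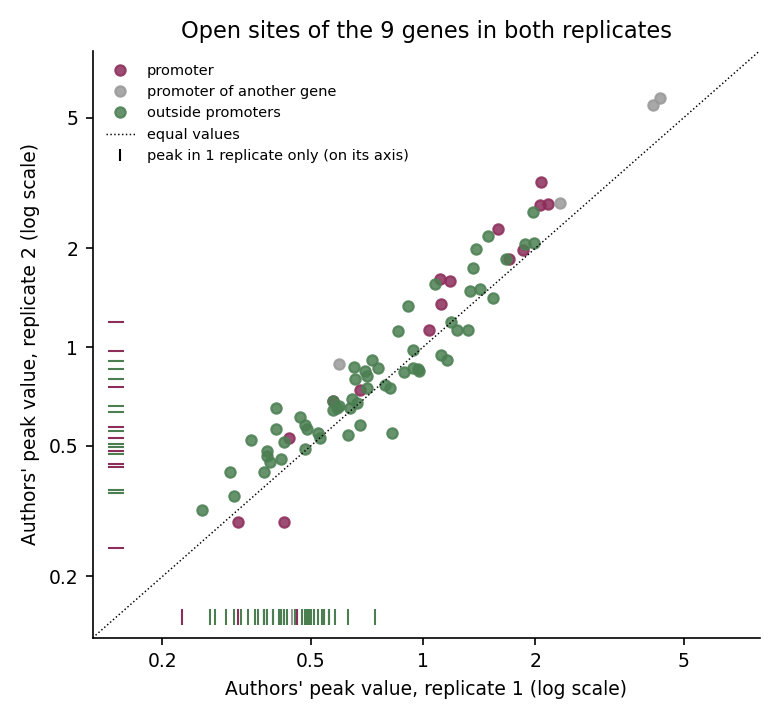
Peak value (authors' value, unit not stated, log scales) of each site of the 9 genes in replicate 1 and replicate 2, coloured by place, with ticks along the axes for sites seen in 1 replicate only and a dotted line for equal values. Of the 79 sites in both replicates 61 lie above the line, the common direction at shared promoter peaks over all genes. The sites in 1 replicate only are mostly of low value.

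The windows of the 9 genes held 300 footprints in replicate 1 and 275 in replicate 2. Of these, 28% and 28.4% were shared, against 31.8% and 37.5% of all footprints, and 87% and 86.5% lay inside a peak, against 85.7% and 85.4%. Among the 84 shared footprints of replicate 1, 17 (20.2%) were at least 20 bp long, against 24.9% of all shared footprints. The AGGGGGCGC core, searched on both strands, was in 3 of these 17 (17.6%), those of Trp73, Lhx5 and Calb2 shown above, against 4.36% of all wide shared footprints. With the looser word GGNGGCGC, which was chosen after the sequences were seen, the count was 6 of 17 (35.3%) against 12%, the further 3 being in Lrp8 intron 4, the Calb2 downstream flank and the Magoh promoter. Over the central 150 bp of shared peaks, the same looser word was in 7 of 21 (33.3%) against 12.5% at promoters and in 3 of 64 (4.69%) against 5.07% outside them. The 21 promoter peaks include those of the neighbouring genes Magoh, Aatf and Wrap73, and the Lrp8 intron 4 peak. A match is only a run of letters, and no factor was measured.

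Over the central 150 bp of shared peaks outside promoters, TTGGCA was in 17 of 64 (26.6%) against 16.4% of all such peaks, CAGCTG in 14 (21.9%) against 16.9%, CAGATG in 15 (23.4%) against 21.3% and the Sox word ACAAAG in 10 (15.6%) against 11.4%. TGANTCA, the word of Fos and Jun, was in 1 (1.56%) against 5.44%, and the homeodomain word TAATTA in 0 against 2.72%. Most of the 20 TTGGCA matches lay outside footprints, with 1 in footprints of both replicates. Counting promoter peaks too, 3 of 16 CAGCTG, 2 of 16 CAGATG, 4 of 13 GGGCGG and all 3 AGGGGGCGC matches lay in footprints of both. The share of matches in footprints over all shared peaks is not given, so these counts have no background. In shared promoter peaks, GGGCGG was in 6 of 21 (28.6%) against 35.1% of all promoter peaks, and 2 of the 6 were at the neighbouring promoters of Aatf and Wrap73. There TTGGCA was in 0 of 21 against 7.45%, and TAATTA in 1 (4.76%) against 0.934%. These are counts in few peaks, 34 of the 64 being at Dab1, and carry no test.

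The other genes of the Reelin pathway were open throughout: all 34 listed had a peak at the promoter in both, against 64.3% of all genes. The highest were Gsk3b, a kinase restrained downstream of DAB1, with 7.18 in replicate 1 and 7.55 in replicate 2, Rnf7 with 6.12 and 7.3, Snx17, a sorting protein of the receptors, with 5.13 and 7.58, and Crkl, an adaptor that binds phosphorylated DAB1, with 5.31 and 5.73. The 34 genes include many that all cells use, and the list was chosen with earlier results of these data known, so its count is not evidence on the pathway as such.

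Of 14 other Cajal-Retzius markers, 8 (57.1%) had a peak at the promoter in both replicates, against 64.3% of all genes. The highest were Nr2f2 at 2.64 and 3.46, Cxcr4 at 1.58 and 2.56, Tbr1 at 1.38 and 1.59, and Ebf2 at 0.884 and 1.86. Nhlh2, Dbx1 and Wnt3a had none in either, and Ebf3 (0.679) had one only in replicate 1, while Barhl2 (1.15) and Eya2 (0.465) had one only in replicate 2. Among the 8 with both values, the median ratio of replicate 2 to replicate 1 was 1.35, against 1.25 over all genes, and 4 had a ratio above 1.37, the upper quartile of all genes. The summed value was 10.6 in replicate 1 and 15.9 in replicate 2, a sum in which genes listed in 1 replicate only count as 0 in the other. Ebf1, at 0.615 and 1.34, and Ebf2 had ratios of 2.17 and 2.1. Lhx1 had promoter peaks in replicate 2 only and Trp73 in replicate 1 only, and Reln and Calb2 had ratios of 1.2 and 1.27. For the 5 CA pyramidal cell genes with both values the median ratio was 1.33, with 2 above 1.37. For the 6 dentate granule cell genes it was 1.19, also with 2 above 1.37. Whether the replicates differed in their share of any cell type was not tested.

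Markers of other cells that the dissection could hold are given beside these, to be read against the same 64.3%. Of 12 neurogliaform and GABAergic genes, 8 (66.7%) had a promoter peak in both, led by Id2 at a mean of 5.45 and Gad1 at 2.16, with Sst in replicate 2 only (0.326) and none at Slc32a1 or Cplx3. Their summed value was 11.8 in replicate 1 and 14.4 in replicate 2, of which Id2 alone gave 5.2 and 5.7. The median ratio was 1.26, with 2 of 8 genes above 1.37. Of 7 genes of meninges and fibroblasts, next to which Cajal-Retzius cells lie, 5 (71.4%) had one in both, led by Col1a1 at 2.6 and Foxc1 at 0.999, with none at Col1a2 and Lum. Their median ratio was 1.47, with 3 of 5 genes above 1.37, and their summed values were 5.08 and 5.98, Col1a1 being lower in replicate 2 (2.73 and 2.46). Of 6 choroid plexus genes 2 (33.3%) had one in both, Otx2 at 0.715 and Kl at 0.614, with none at Folr1 and Kcnj13, Aqp1 in replicate 1 only (0.467), Ttr in replicate 2 only (0.783) and summed values of 1.58 and 2.32. The median ratio of the 2 genes was 1.38. The part of these cells in the values of the 9 genes was not tested.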

How the data were processed

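DNase-seq was measured in 2 biological replicates of 1 tissue. Per the file headers and the deposited file descriptions, each file came from the alignment of 1 library to mm10, and peaks were called per replicate. The aligner is not given in the sources used here, nor is the peak caller. The signal per peak (the peak value) was deposited by the authors without unit or normalization, and read depth is unknown. Within a tolerance of 0.05 of a step, 100% of values were whole multiples of 0.00707 in replicate 1 and 0.00815 in replicate 2. The deposited p-value columns are false discovery rates: listed stretches lie under 0.05, and each footprint carries 0.01. In the longer peak lists, used here, 3.18% and 3.3% of peaks overlapped the next one.

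Genes came from GENCODE M21 on GRCm38.p6. From the files, promoter peaks (1000 bp either side of any start), shared peaks (at least 1 bp overlap), shared footprints, 16 motif words on both strands in 150 bp on peak centres, and CpG ratios were computed with Python 3.11.15, pandas 2.3.3, numpy 2.4.6 and pysam 0.24.0. The counting was tested on simulated data. The principal start is that of the longest transcript tagged principal in the annotation or, with no such tag, the longest protein-coding one. Members, gene lists and words were chosen with earlier results of these data known. Named were all 9 genes, their 3 strongest shared peaks outside promoters, and from each list the highest genes, those with a peak in 1 replicate and the first with none. Alternatives were other promoter windows, flanks, overlaps and peak lists, and leaving out a replicate; protein-coding start sites, promoter values at the 5′ end and the word GGNGGCGC were added after seeing the data. No test was run, since there was no second group.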

Additional observations from a re-analysis of the deposited data

How the results depend on the processing

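The 6 genes with a shared promoter peak numbered 6 with a window of 500 bp, the shorter peak list, the gene's 5′ end only or protein-coding start sites only, and 7 with 2500 bp or in either replicate alone. With protein-coding start sites, 62.9% of all genes had one. Counted at the gene's 5′ end only, an alternative added after seeing the data, the promoter mean fell from 2.39 to 1.39 for Dab1 and from 1.92 to 1.78 for Vldlr, both by more than 1 SD. The mean of Lrp8 was 1.94 under that alternative, with a window of 500 bp and with protein-coding start sites. All 40 other values of promoter means under alternatives, those of Lrp8 included, stayed within 1 SD, which leaving out 1 of 2 replicates cannot exceed. The 64 shared peaks outside promoters fell to 25 in the shorter peak list, and leaving out a replicate gave 73 to 102 peaks. The 84 shared footprints fell to 43 at a cover of 90% of the length, and leaving out a replicate gave 275 to 300. The counts of sites and footprints thus depend on the authors' threshold and on the rule for sharing, since the stricter settings keep fewer of them. No paired analysis was possible because there was 1 group only. Read depth is unknown, so a promoter without a peak, as at Lhx5, may lie under the threshold at this depth.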
